A study of Homo sapiens with 38 samples.

Results

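The small subunit of the human ribosome carries proteins that are each made from a separate gene, and 28 of those genes form the set described here: RPSA, RPS2, RPS3, RPS3A, RPS4X, RPS6, RPS7, RPS9, RPS10, RPS12, RPS13, RPS14, RPS15, RPS15A, RPS16, RPS18, RPS19, RPS20, RPS21, RPS23, RPS24, RPS25, RPS26, RPS27, RPS27A, RPS28, RPS29 and FAU. They were taken by Ensembl identifier from the 23257 protein-coding features among 90127 features of a count table, and all 28 were found. The libraries were small RNA libraries of 2 acute myeloid leukaemia cell lines, HL60 and KG1a, both labelled wild type. HL60 is a promyelocyte-like line and KG1a a more primitive, CD34-bearing one. RNA came from large extracellular vesicles (lEV), from small extracellular vesicles (sEV) and from the cells themselves. Each source was sequenced as RNA enriched by rPAL, in which periodate oxidation and aldehyde ligation put biotin on sialic acid-bearing RNA (sialoglycoRNA) for pull-down, and as unselected total RNA, the input.

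There were 12 groups. HL60 lEV rPAL, HL60 lEV total, HL60 sEV rPAL, HL60 sEV total, HL60 cell rPAL and HL60 cell total RNA had 3 libraries each, as did KG1a lEV rPAL, KG1a lEV total, KG1a sEV rPAL and KG1a sEV total RNA, while KG1a cell rPAL and KG1a cell total RNA had 4 each. Cells used for cell RNA grew in medium with 10% serum, and cells used for vesicles were kept without serum for 2 days, so source and serum cannot be told apart in any vesicle-to-cell comparison. Nothing in the labels ties a replicate to its own culture. The p-values therefore cover only the spread among these libraries, part or all of which may be technical.

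A small-subunit ribosomal protein binds ribosomal RNA during assembly in the nucleolus and ends up in the head, platform, beak or body of the mature subunit. The genes are transcribed strongly in every growing cell, and their mRNAs, like those of large-subunit proteins and several translation factors, begin with a run of pyrimidines, the terminal oligopyrimidine (TOP) element, through which mTOR signalling sets their translation. Several carry small nucleolar RNA (snoRNA) genes in their introns. These snoRNAs are released from the spliced intron and guide chemical modification or cutting of ribosomal RNA.

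The shared sequence feature of the set was at the transcription start. Windows of 30 bases, 10 before the RefSeq start (GRCh38.p14) and 20 from it, are shown for 5 genes on which the results below turn. Capitals mark the longest pyrimidine run.
RPS25, chr11:119018324-119018353, minus strand: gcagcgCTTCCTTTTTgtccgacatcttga
RPS13, chr11:17077648-17077677, minus strand: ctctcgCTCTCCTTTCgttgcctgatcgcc
RPS3, chr11:75399508-75399537, plus strand: cgagccaCTTCCTTTCCTTTCagcggagcg
RPS14, chr5:150449720-150449749, minus strand: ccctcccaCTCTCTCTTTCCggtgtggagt
RPS21, chr20:62387093-62387122, plus strand: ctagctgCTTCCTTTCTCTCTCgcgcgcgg
A run of at least 7 pyrimidines, searched on the gene's own strand, was found in 23 of 25 matched members (92%), against 6283 of 27305 genes of the promoter table (23%). RPS4X and RPS29 had a longest run of 5. RPS2, RPS15A and RPS20 had no entry. RPS25 and RPS13, whose windows both hold a run of 10, went in opposite directions after rPAL, as described below.

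Library totals ranged between 2380745 and 15532758 counts in rPAL libraries and between 5498168 and 14892937 in total RNA. The 28 mRNAs held 111665 of 344559041 counts, so single members were often at a few counts, and a protein-coding feature in such libraries collects fragments of its mRNA. In total RNA 27 or 28 members had a count in every library. Cell rPAL libraries held 26 to 28, but HL60 lEV rPAL libraries held 13 to 19, HL60 sEV rPAL libraries 9 to 17, KG1a lEV rPAL libraries 16 to 28 and KG1a sEV rPAL libraries 12 to 27. Sums of marker genes went with the labelled lines. The 4 KG1a markers (CD34, PROM1, KIT, ERG) summed to 0.214 to 0.769 CPM (counts per 1000000 library counts) in HL60 cell total RNA and 2.77 to 5.84 CPM in KG1a cell total RNA. The 5 granule genes including MPO summed to 2.80 to 4.14 CPM in HL60 and to at most 0.164 CPM in KG1a. Single markers did not all do so. In cell total RNA CD34 averaged 2.95 CPM in KG1a and 0.0704 CPM in HL60, and MPO 2.49 CPM in HL60 and 0.0181 CPM in KG1a. KIT, however, averaged 0.0725 CPM in KG1a and 0.186 CPM in HL60, and the granule gene ELANE had no count in cell total RNA of either line. A list of 9 markers of other blood cells or serum summed to at most 0.672 CPM in cell total RNA. It reached 8.37 CPM in HL60 sEV total library 1, mostly PF4, and 29.6 CPM in KG1a lEV rPAL library 3, all of it CD3E, and its part in the results was not tested.

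Summed over the 28 mRNAs, levels were higher after rPAL in cells of both lines, and most of the excess in HL60 cells was RPS25. In HL60 cells the sum was 618 ± 337 CPM in rPAL RNA and 124 ± 7.40 CPM in total RNA (SD, n = 3 each). In KG1a cells it was 237 ± 85.4 CPM in rPAL and 120 ± 14.2 CPM in total RNA (SD, n = 4 each). In HL60 lEV it was 2368 ± 1665 CPM in rPAL and 149 ± 27.2 CPM in total RNA, and in HL60 sEV 380 ± 296 CPM in rPAL and 158 ± 55.2 CPM in total RNA. In HL60 sEV the libraries ranged over 92.4 to 683 CPM in rPAL and 124 to 222 CPM in total RNA, so they overlapped. KG1a vesicles had 358 ± 262 CPM in lEV rPAL and 256 ± 4.67 CPM in lEV total RNA, and 313 ± 151 CPM in sEV rPAL and 329 ± 129 CPM in sEV total RNA (SD, n = 3 each). Without RPS25 the sums in HL60 cells were 181 ± 26.2 CPM in rPAL and 122 ± 7.29 CPM in total RNA, those in HL60 lEV 387 ± 138 and 130 ± 25.4 CPM, and those in HL60 sEV 180 ± 126 and 151 ± 47.6 CPM. In KG1a cells they were 211 ± 78.0 CPM in rPAL and 119 ± 14.2 CPM in total RNA, so most of that excess was not RPS25. In KG1a lEV they were 310 ± 212 and 249 ± 8.16 CPM, and in KG1a sEV 232 ± 43.7 and 320 ± 128 CPM. In HL60 cells the whole protein-coding class also took more of the library, 6.24 ± 1.35% of counts in rPAL against 2.07 ± 0.187% in total RNA (SD). In KG1a cells it took 2.64 ± 0.752% in rPAL against 2.05 ± 0.215% in total RNA. Those KG1a libraries overlapped, at 18296 to 33517 CPM in rPAL and 18312 to 22772 CPM in total RNA. Because members were chosen with results known, the sums were not tested. These are bulk libraries, so a changed number of contributing cells or vesicles and a changed amount of the mRNA in each cannot be told apart.

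Per kilobase of annotated exon, RPS25 had the highest mean level over the 38 libraries, at 151 CPM per kilobase, followed by RPS12 at 19.2, RPS13 at 8.62, RPS21 at 8.48, RPS20 at 8.41, RPS4X at 6.72 and RPS2 at 6.64 CPM per kilobase. At the low end RPS10 had 0.154 and RPS9 0.107 CPM per kilobase, and RPS10 had a count in 21 libraries and RPS9 in 27. Levels of pairs of members across libraries of one RNA kind were only loosely tied, with a median Pearson correlation of 0.19 over 19 rPAL libraries and 0.43 over 19 total RNA libraries for 378 pairs, a description of libraries that share sources and depths. The map of log2 levels by library shows the RPS25 row standing out in rPAL libraries and the low rows of RPS9 and RPS10.

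**Figure D1:**
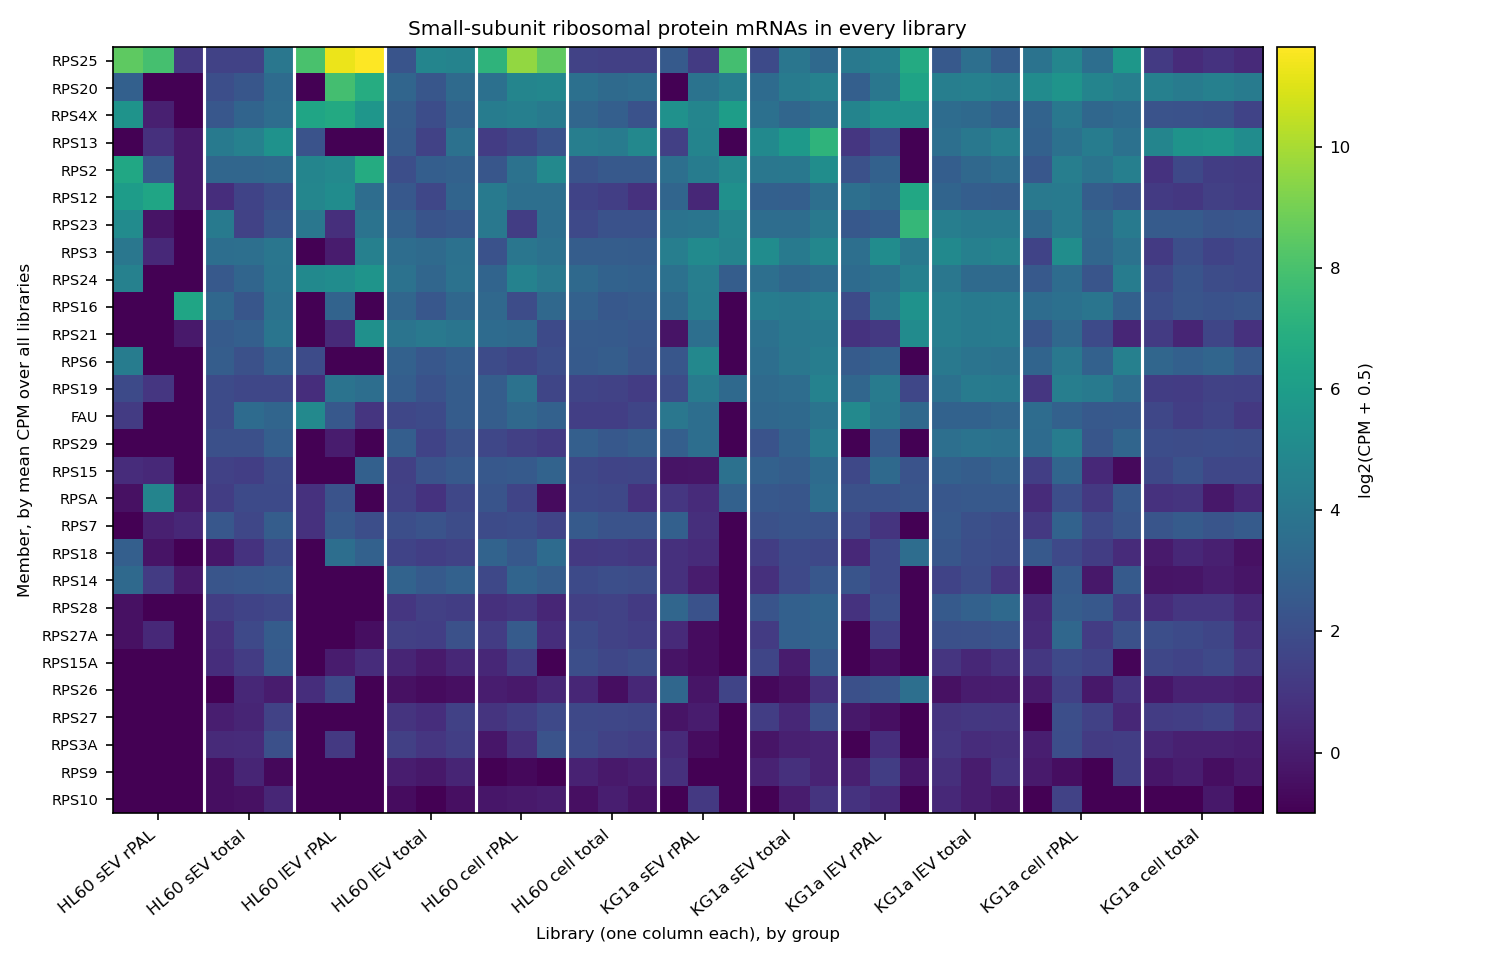
Levels of the 28 small-subunit mRNAs, as log2(CPM + 0.5), in each of 38 libraries ordered by group; rows are genes and columns libraries. RPS25 is the highest row per kilobase, reaching 3224 CPM in HL60 lEV rPAL library 3, and the vesicle rPAL columns of both lines hold mRNAs with no count, with 9 of 28 mRNAs present in the emptiest HL60 sEV column.

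RPS25, an RNA-binding protein of the subunit head that many viral internal ribosome entry sites need, had the largest rise after rPAL in the cells of both lines. In HL60 cells it had 152, 778 and 381 CPM in rPAL libraries, against 2.35, 2.15 and 2.17 CPM in total RNA. In KG1a cells it had 13.8, 27.4, 11.5 and 51.8 CPM in rPAL libraries, against 1.74, 0.986, 1.32 and 0.924 CPM in total RNA. Every rPAL library of either cell line lay above every total RNA library of that line. The log2 fold changes were 7.31 ± 0.64 in HL60 cells and 4.39 ± 0.79 in KG1a cells (± SE), with adjusted p = 3.42e-05 and 0.00281 by edgeR's quasi-likelihood test with Benjamini-Hochberg adjustment over all features. The call held in all 14 alternative fits of the KG1a comparison, with and without each library and without rPAL libraries 2 and 3 together (log2 fold change 3.38 to 4.79), and in all 11 of the HL60 comparison (6.39 to 7.61). RPS25 made up 50.1% to 80.0% of all member counts in HL60 cell rPAL libraries, against 1.76% to 1.83% in HL60 cell total RNA.

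Vesicle libraries scattered more for RPS25, and 1 of the 4 vesicle comparisons passed the test. HL60 lEV had 259, 2461 and 3224 CPM in rPAL libraries and 4.44, 26.3 and 25.1 CPM in total RNA, with no overlap and a log2 fold change of 5.18 ± 1.21 (edgeR adjusted p = 0.0155). Leaving out any HL60 lEV total library, 1, 2 or 3, ended that call, with adjusted p of 0.0731, 0.0584 and 0.0798. HL60 sEV had 360, 239 and 1.68 CPM in rPAL libraries, against 2.36, 2.28 and 15.6 CPM in total RNA. The third rPAL library lay below all of the total RNA libraries, and the difference missed the threshold (log2 fold change 4.76 ± 1.78, adjusted p = 0.111, edgeR). KG1a lEV had 17.1, 21.3 and 106 CPM in rPAL and 5.22, 11.8 and 5.91 CPM in total RNA, and KG1a sEV had 5.40, 1.79 and 234 CPM in rPAL and 3.11, 14.9 and 9.61 CPM in total RNA. In KG1a sEV 1 rPAL library lay above and 1 below all total RNA libraries. Neither KG1a comparison passed (edgeR adjusted p = 0.182 and 0.237).

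The identity of the RPS25 counts is uncertain. An unnamed protein-coding Ensembl entry, ENSG00000280831.3, held 44538 counts against 45241 for RPS25 and followed it with r = 0.995 on log2 counts over 38 libraries. Among 35 libraries with at least 10 counts of each, the log2 ratio of the 2 reached 0.918 in size, so single libraries were not equal. Whether the same reads were counted for both was not tested. The gene (chr11:119015712-119018691, minus strand, GRCh38, GENCODE 29) also overlaps CCDC84 and TRAPPC4 on the other strand. As the strand used in counting is not given in the sources used here, RPS25 reads and reads of those genes cannot be told apart. RPS2 has a like partner of 4679 counts (r = 0.97), and RPS18 has 3 of 896 to 1003 counts (r of 0.956 to 0.968), so their values carry the same uncertainty. FAU, RPS3A, RPS4X, RPS6, RPS9, RPS18, RPS23, RPS26, RPS27A, RPS28 and RPS29 also overlap annotated genes on the other strand. For RPS29 these include RN7SL1. The strand limit given for RPS25 holds for these members too. FAU, RPS2, RPS9, RPS10, RPS13, RPS15A and RPS29 overlap another gene on their own strand.

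**Figure D2:**
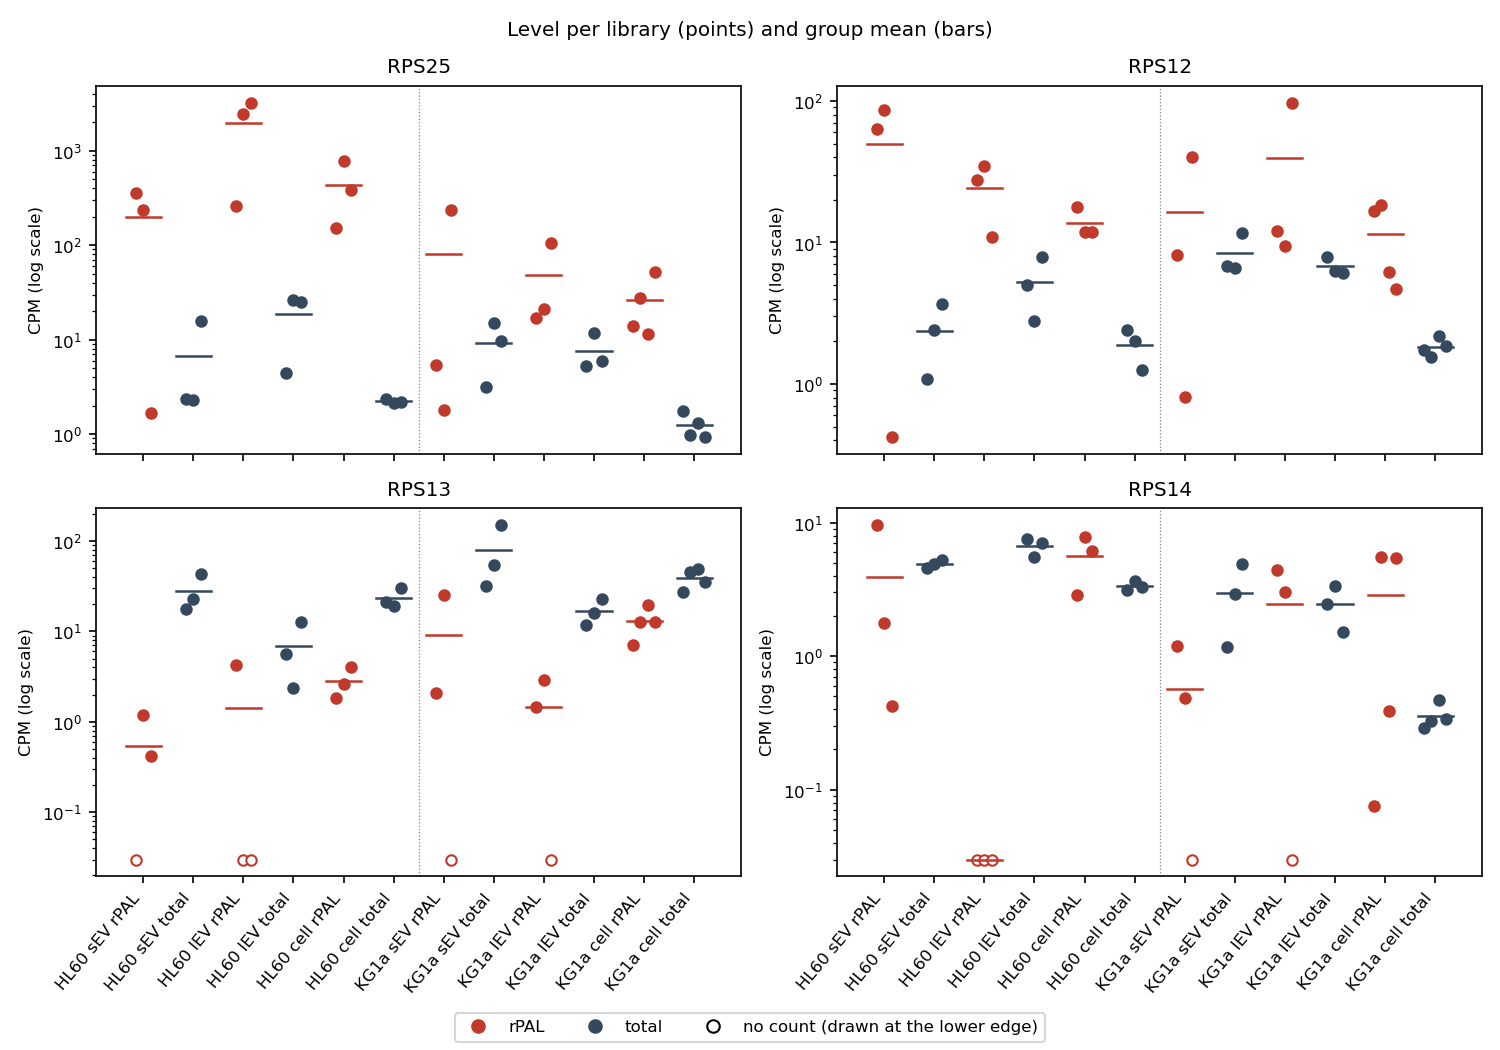
CPM of RPS25, RPS12, RPS13 and RPS14 in each library, on a log axis, with group means as bars and libraries with no count as open points at the lower edge. RPS25 in HL60 cells lies at 152 to 778 CPM in rPAL and 2.15 to 2.35 CPM in total RNA, whereas RPS13 lies lower in rPAL than in total RNA.

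Beyond RPS25, few members were called higher after rPAL in cells. In KG1a cells 4 of 23 tested members rose and 1 fell, against 8.89% of all features tested called higher and 9.86% called lower. The 4 were RPS25, RPS2, RPS12 and RPS19. With no scaling between libraries the split was 4 higher and 0 lower, beside 640 of 6592 features higher and 487 lower. In HL60 cells 5 of 25 rose (RPS25, RPS12, RPS18, FAU and RPS4X) and 2 fell (RPS13 and RPS29), against 20.6% of all features called higher and 18.0% lower, so the share that rose in HL60 was close to the background and the share that fell was under it. With DESeq2's size factors in edgeR that split was 3 higher and 3 lower, beside 1162 of 6902 features higher and 1423 lower. Median log2 fold changes of the tested members were 0.47 in HL60 and 1.23 in KG1a cells, beside 0.04 and -0.04 for all features. Positive were 18 of 23 members in KG1a and 15 of 25 in HL60 cells. At unadjusted p under 0.05 by edgeR were 13 in KG1a and 9 in HL60, beside 1856 of 6592 and 3143 of 6902 features. DESeq2 called 6 higher and 1 lower in KG1a, beside 713 and 920 of all features. In HL60 it called 3 higher and 5 lower, beside 1277 and 1574. By edgeR, counts of called members in KG1a cells were 3, 2, 2 and 2 without total library 1, 2, 3 or 4. Those in HL60 cells were 3, 3 and 4 without total library 1, 2 or 3. Calls over all features in these fits were 973, 915, 929 and 1035 in KG1a, beside 1236 with all libraries. In HL60 they were 1743, 1743 and 1732, beside 2663. RPS3A, RPS9, RPS10, RPS14 and RPS26 were too low for the KG1a cell test and RPS9, RPS10 and RPS26 for the HL60 cell test.

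RPS12, a protein of the subunit's beak, rose in both lines. HL60 cells had 17.9, 11.8 and 11.8 CPM of RPS12 in rPAL, against 2.43, 2.01 and 1.26 CPM in total RNA (log2 fold change 2.60 ± 0.49, edgeR adjusted p = 0.00272), a call kept in all 11 alternative fits. KG1a cells had 16.7, 18.4, 6.16 and 4.70 CPM in rPAL, against 1.74, 1.56, 2.17 and 1.85 CPM in total RNA (log2 fold change 2.37 ± 0.59, adjusted p = 0.0132). The KG1a libraries did not overlap either, but that call was lost without any of the 4 total libraries, with adjusted p of 0.0534, 0.0766, 0.0675 and 0.0542. RPS12 was higher on average in rPAL than in total RNA in all 6 sources, as were RPS25, RPS4X and RPS23. Called higher in these 6 comparisons were RPS12 in 2, RPS25 in 3, RPS4X in 2 and RPS23 in 0. The processed pseudogene RPS23P8 held 5578 counts beside 3715 for RPS23 (r = 0.864 on log2 counts), and whether they share reads was not tested.

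RPS2, a protein near the mRNA entry channel, had 4.87, 20.7, 14.3 and 21.7 CPM in KG1a cell rPAL libraries, against 1.30, 2.79, 1.98 and 1.76 CPM in total RNA. The groups did not overlap, and the log2 fold change was 2.85 ± 0.65 (edgeR adjusted p = 0.00845). RPS18, which sits in the head and bridges to the large subunit, had 7.59, 5.18 and 10.4 CPM in HL60 cell rPAL and 1.64, 1.75 and 1.61 CPM in total RNA (log2 fold change 1.96 ± 0.51, adjusted p = 0.0137, not past the threshold without total library 1, 2 or 3, at 0.137, 0.102 and 0.139). FAU, which encodes a ubiquitin-like protein fused to eS30, had 6.07, 9.32 and 7.08 CPM against 2.07, 2.08 and 2.66 CPM in the same comparison (log2 fold change 1.45 ± 0.45, adjusted p = 0.0308). That call was lost with 5 of the 6 libraries left out in turn, all except rPAL library 3, with adjusted p of 0.063 to 0.261. RPS19, the gene most often mutated in Diamond-Blackfan anaemia, also passed in KG1a cells, yet rPAL library 1 had 1.52 CPM, below the total RNA range of 1.89 to 2.36 CPM. The RPS19 call was lost without any of the 4 total libraries (adjusted p of 0.106 to 0.134), without rPAL library 2 (0.0741) and without rPAL library 3 (0.0578). RPS4X in HL60 cells passed in no fit that left out a library (adjusted p of 0.0698 to 0.372).

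RPS13, whose bacterial counterpart binds ribosomal RNA early in assembly and whose introns hold 2 snoRNA genes, went the other way. In HL60 cells it had 1.86, 2.59 and 4.09 CPM in rPAL libraries, against 21.1, 18.9 and 29.8 CPM in total RNA. In KG1a cells it had 7.15, 12.8, 19.4 and 12.8 CPM in rPAL, against 27, 45.1, 49.4 and 34.8 CPM in total RNA. All rPAL libraries lay below all total RNA libraries in both lines. RPS13 fell by 3.27 ± 0.51 on the log2 scale in HL60 cells (edgeR adjusted p = 0.00100, kept in all 11 alternative fits) and by 1.77 ± 0.50 in KG1a cells (adjusted p = 0.0255, lost without KG1a total library 2, 3 or 4 at 0.0819, 0.0844 and 0.0548). Its mean was lower in rPAL than in total RNA in all 6 sources, which also held for RPS7, RPS15A and RPS27. In KG1a lEV it had 1.47, 2.91 and 0 CPM in rPAL libraries and 11.8, 16.1 and 22.6 CPM in total RNA, without a call by edgeR. RPS29, a small zinc-binding protein, also fell in HL60 cells, with 2.70, 2.18 and 1.73 CPM in rPAL against 6.63, 5.17 and 6.08 CPM in total RNA (log2 fold change -1.70 ± 0.46, adjusted p = 0.0159, lost without total library 1 or 2 at 0.0525 and 0.0503).

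**Figure D3:**
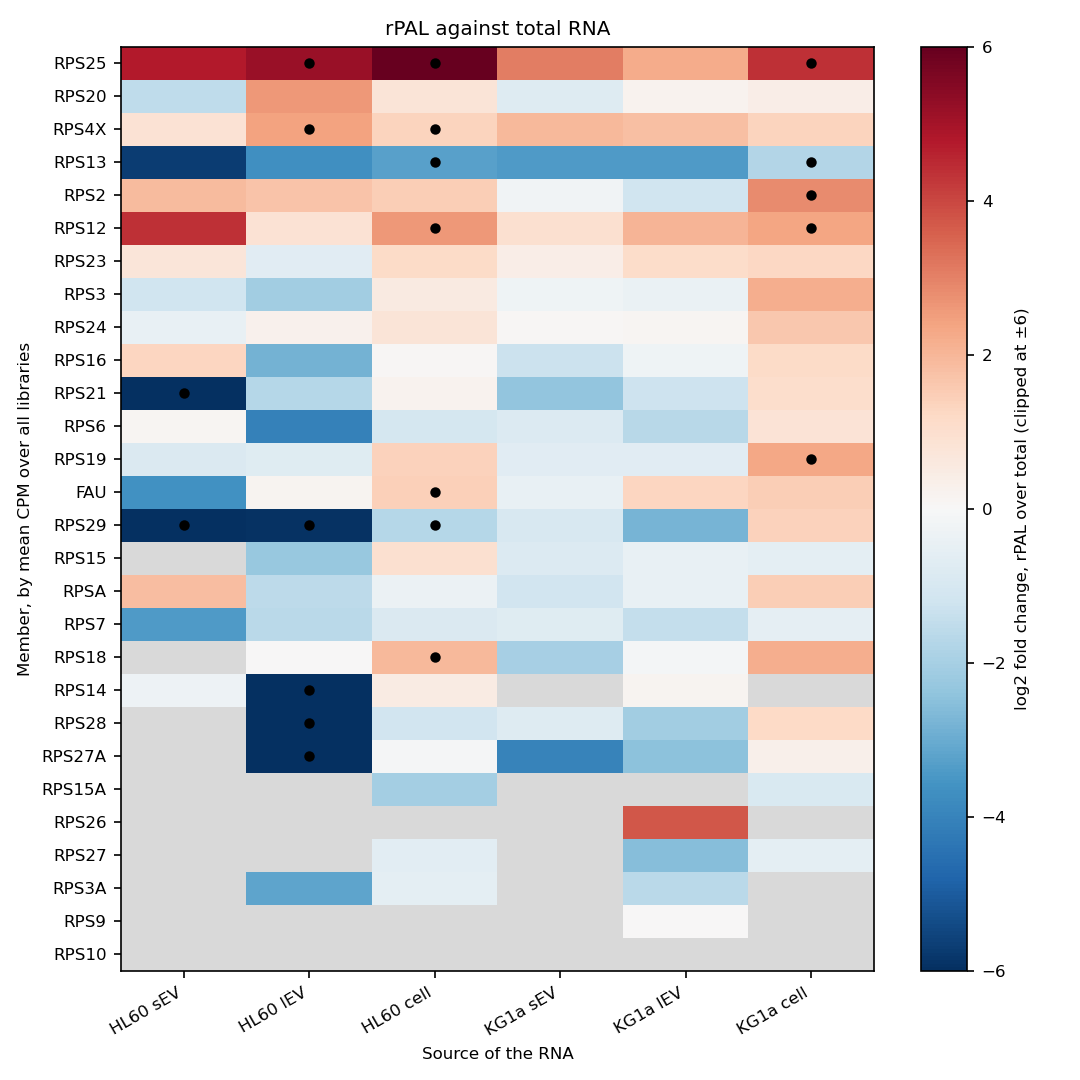
Log2 fold change of rPAL over total RNA for each member (rows) in the 6 sources (columns), with dots on members called at adjusted p under 0.05 and grey where a member was not tested. RPS25 and RPS12 are positive in the cells of both lines and RPS13 is negative, while HL60 vesicle columns hold several strong negative values.

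In lEV of HL60, 2 of 23 tested members rose after rPAL and 4 fell, against 12.3% of all features called higher and 18.9% lower. RPS4X, a subunit protein encoded on the X chromosome, had 87.5, 102 and 50.1 CPM in rPAL and 6.04, 3.44 and 7.55 CPM in total RNA (log2 fold change 2.42 ± 0.75, edgeR adjusted p = 0.0386). RPS14, a platform protein whose loss marks the 5q- syndrome of the bone marrow, had no count in any of the 3 HL60 lEV rPAL libraries, against 7.55, 5.49 and 7.03 CPM in total RNA. Taken against the floor of 3 counts over the group, RPS14 was at least 31.3-fold lower (adjusted p = 0.0154), and RPS28, also at 0 in rPAL, at least 8.65-fold lower than its 1.51, 2.12 and 1.92 CPM in total RNA (adjusted p = 0.0107). RPS27A, made as a fusion with ubiquitin, and RPS29 also fell, with log2 fold changes of -6.25 ± 1.39 and -5.93 ± 1.84 (adjusted p = 0.0128 and 0.0384). The counts here are shallow. No member was called when any of the 3 total libraries was left out, and 10 were called without rPAL library 3. Over all features the calls without total library 1, 2 or 3 were 202 of 3458, 207 of 3544 and 251 of 3153. Without rPAL library 3 they were 2516 of 5412. Without scaling, the median log2 fold change of all features was 1.52 rather than 0.08. The members' median was then -0.14 rather than -1.62. Scaling moves all features by nearly the same amount, so the members' place under that median is no check on it.

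In sEV of HL60, 2 of 18 tested members fell, RPS21 and RPS29, and 0 rose, against 16.3% of all features lower and 2.51% higher. RPS21, a subunit protein found in eukaryotes and not in bacteria, had 0, 0 and 0.420 CPM in rPAL and 5.64, 6.71 and 14.5 CPM in total RNA, a log2 fold change of -6.26 ± 1.81 (edgeR adjusted p = 0.0403). RPS29 had no count in rPAL and 3.82, 3.71 and 6.73 CPM in total RNA, at least 15.4-fold lower by the same floor (adjusted p = 0.0286). Both calls were lost without any single library. DESeq2 called 7 members in this comparison, 2 of them higher, beside 321 of 3619 features called higher and 854 lower by DESeq2.

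In KG1a vesicles edgeR called no member after rPAL. In lEV 0 of 26 passed, with 4 at unadjusted p under 0.05, against 3.16% of features higher and 7.07% lower. DESeq2 called RPS26 higher (log2 fold change 3.45) and RPS13 lower (-3.81), and edgeR called 5 without rPAL library 2 and 4 without rPAL library 3. Over all features DESeq2 called 420 of 5857 higher and 886 lower. Those edgeR fits called 2117 of 7282 and 1672 of 7356. In sEV 0 of 21 passed, with 3 at unadjusted p under 0.05, against 0.48% higher and 6.13% lower. There DESeq2 called RPS27A lower, beside 153 of 8128 features higher and 969 lower. The rPAL libraries of KG1a sEV scattered more for some members than for others. RPS4X had 41.4, 26.4 and 65.3 CPM in rPAL against 12.1, 8.50 and 11.5 CPM in total RNA. RPS13 scattered more, with 2.10, 25.3 and 0 CPM in rPAL against 31.6, 54.7 and 150.4 CPM in total RNA. For neither gene did rPAL and total RNA libraries overlap.

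Whether enrichment differed between the lines was tested as an interaction, HL60 minus KG1a. By edgeR 0 of 26 members passed in cells (5 at unadjusted p under 0.05, DESeq2 2), 0 of 27 in lEV (5, DESeq2 1) and 0 of 24 in sEV (1, DESeq2 0). Of all features 0.636% and 1.18% were called higher and lower in cells, 0.0% and 0.0% in lEV and 0.0206% and 0.402% in sEV. RPS25 had a difference of 2.80 ± 0.94 on the log2 scale in cells (adjusted p = 0.120) and 3.02 ± 1.45 in lEV (adjusted p = 0.227). The smallest adjusted p in cells was that of RPS29, at 0.0562 for -3.21 ± 0.86. In cells 1 member was called without KG1a rPAL library 1 or 3 and 2 without library 4, and in lEV 2 without KG1a rPAL library 3.

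The total RNA of vesicles was compared with that of cells. In KG1a lEV most members rose: 18 of 25 tested were called higher and 2 lower, against 23.8% of all features higher and 28.5% lower. Their median log2 fold change was 1.73, beside -0.01 for all features, and the count was 19 or 20 with any library left out. In HL60 lEV 11 of 25 rose and 1 fell, against 12.1% and 15.2% of features, with a median of 1.03 beside 0.16. In KG1a sEV 11 of 24 rose and 2 fell, against 23.0% and 22.1%, with a median of 0.82 beside 0.22. In HL60 sEV edgeR called 0 of 25, with 2 at unadjusted p under 0.05, against 13.9% and 12.8%. DESeq2 called FAU higher and RPS20 and RPS27 lower there, and edgeR called 1 without sEV library 1 and 3 without sEV library 3. Over all features DESeq2 called 1416 of 7555 higher and 1306 lower. Those edgeR fits called 2699 of 9657 and 3978 of 10694. The lEV and sEV comparisons of a line share its cell libraries, and these total RNA libraries also served as inputs above.

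Scaling mattered for some of these counts. Without scaling, KG1a sEV gave 18 higher and 0 lower and HL60 lEV 1 higher and 1 lower. Over all features 4343 of 8725 were higher and 1018 lower in KG1a sEV, and 194 of 6527 higher and 1585 lower in HL60 lEV. The medians of all features then moved to 1.34 in KG1a sEV and -0.61 in HL60 lEV, and those of the members to 1.92 and 0.22. The members' median lay above that of all features under both scalings in both comparisons. Scaling moves all features by nearly the same amount, so this is no check on the scaling. The KG1a sEV count was 8 without cell library 2 or 3 and 7 without sEV library 2. The HL60 lEV count was 3, 6 and 4 without cell library 1, 2 or 3.

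RPS21 and RPS3 had the largest rises in KG1a lEV. RPS21 had 21.0, 17.9 and 18.7 CPM in KG1a lEV, against 1.81, 0.740, 2.64 and 1.26 CPM in KG1a cells, and 14.1, 16.8 and 14.5 CPM in HL60 lEV, against 5.71, 5.44 and 4.89 CPM in HL60 cells. In neither line did vesicles and cells overlap. The log2 fold changes were 3.46 ± 0.41 in KG1a (edgeR adjusted p = 1.18e-05) and 2.39 ± 0.53 in HL60, and the HL60 call was lost without HL60 cell library 1 or 3 at adjusted p of 0.0555 and 0.0583. RPS3, which lines the mRNA entry channel and also acts in DNA repair, had 31.1, 22.3 and 24.7 CPM in KG1a lEV and 35.3, 17.9 and 28.5 CPM in KG1a sEV, against 1.74, 3.62, 2.45 and 3.02 CPM in KG1a cells. It rose by 3.17 ± 0.37 in lEV (adjusted p = 9.23e-06) and 2.23 in sEV on the log2 scale. In HL60 lEV the rise of RPS3 was smaller, with 10.8, 9.95 and 12.8 CPM in lEV against 6.14, 6.18 and 6.01 CPM in cells, and it was lost without cell library 1, 2 or 3 at 0.126, 0.0836 and 0.121.

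RPS14 had 2.45, 3.34 and 1.53 CPM in KG1a lEV and 0.290, 0.329, 0.471 and 0.336 CPM in KG1a cells, a log2 fold change of 2.68. RPS19 and RPS18 rose in KG1a lEV by 2.85 ± 0.34 and 2.79 ± 0.39, and RPS25 rose there by 2.51 ± 0.40 (edgeR adjusted p = 0.000114). In HL60 lEV RPS25 led, with 4.44, 26.3 and 25.1 CPM in lEV against 2.35, 2.15 and 2.17 CPM in cells (log2 fold change 3.86 ± 0.69, adjusted p = 0.00189, kept in all 11 alternative fits). RPS12 and RPS19 rose there by 2.18 and 2.13. In KG1a sEV the largest rise was that of RPS2, with 16.0, 16.4 and 35.8 CPM in sEV against 1.30, 2.79, 1.98 and 1.76 CPM in cells (log2 fold change 2.38 ± 0.40, adjusted p = 0.000847). All of these vesicle libraries lay above all cell libraries of their line.

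The exceptions were few. RPS13 fell by 1.31 ± 0.37 in KG1a lEV (edgeR adjusted p = 0.00764), with 11.8, 16.1 and 22.6 CPM in lEV against 27 to 49.4 CPM in cells. RPS15A fell in lEV of both lines, with 1.42, 0.835 and 1.22 CPM in KG1a lEV against 1.68 to 3.02 CPM in KG1a cells, and 0.755, 0.439 and 0.814 CPM in HL60 lEV against 2.75 to 3.64 CPM in HL60 cells. Its log2 fold changes were -1.19 ± 0.37 (adjusted p = 0.0133, 0.0976 without KG1a lEV library 2) and -1.47 ± 0.40 (adjusted p = 0.0171, 0.0639 without HL60 cell library 1 and 0.0685 without HL60 lEV library 3). In KG1a sEV RPS7, which can bind the p53 regulator MDM2, and RPS20 were called lower, and both calls were lost without scaling.

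**Figure D4:**
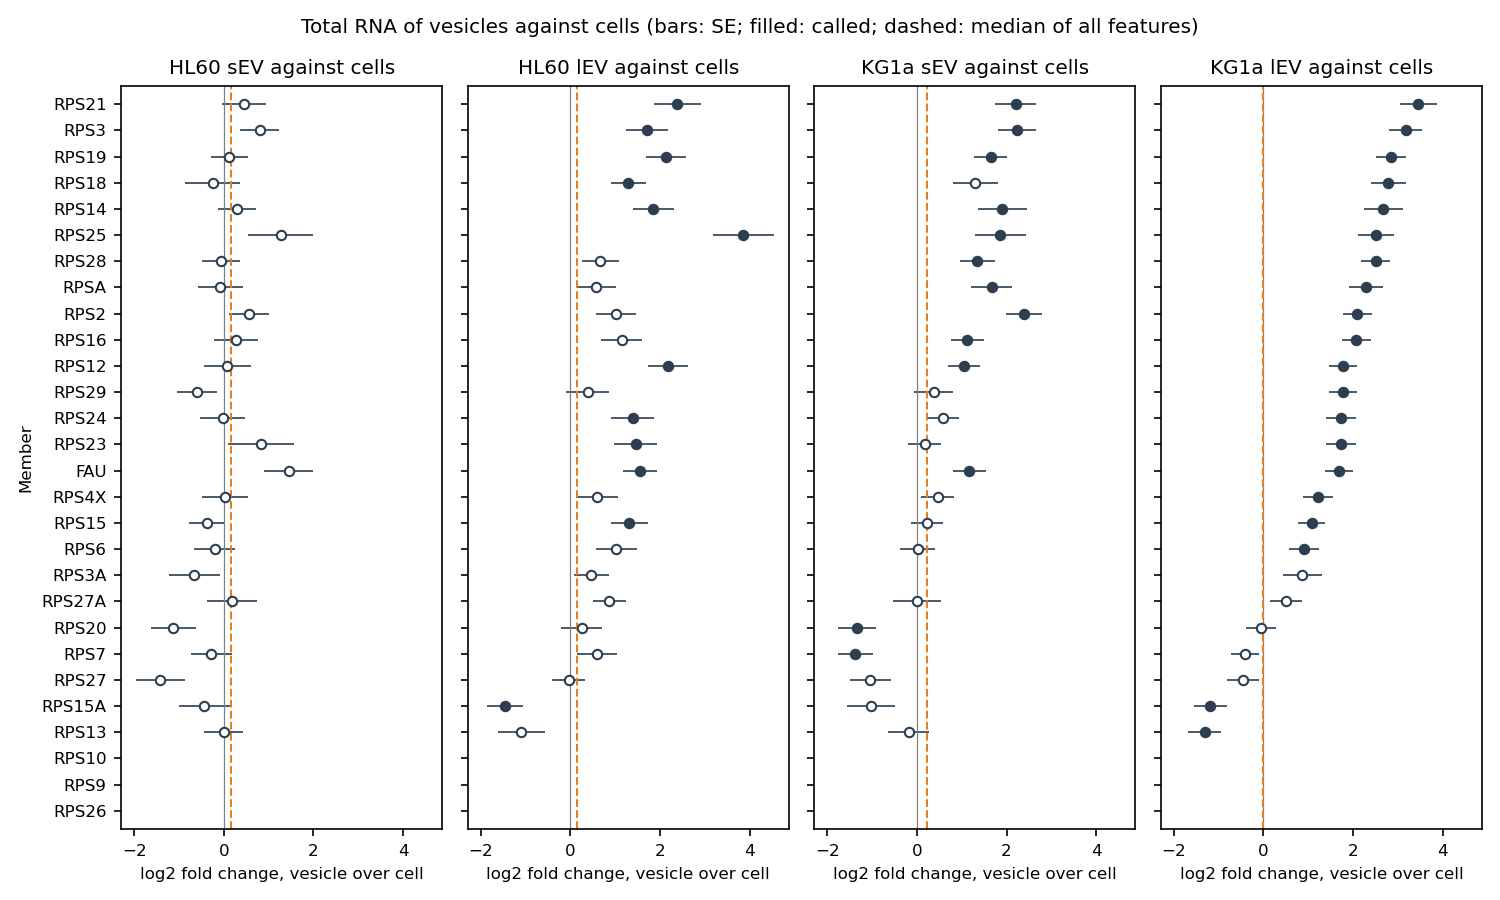
Log2 fold change (± SE) of each tested member in sEV and lEV total RNA over cell total RNA, for HL60 and KG1a; filled points were called at adjusted p under 0.05 and dashed lines mark the median of all features tested. In KG1a lEV 18 of 25 members lie above the line as calls, with RPS21 and RPS3 on top, while HL60 sEV holds no filled point.

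Small and large vesicles differed less. In KG1a, sEV over lEV gave 0 calls of 25 by edgeR, with 9 at unadjusted p under 0.05, against 3.41% of features higher and 1.9% lower. With replicate number as a block, RPS13 was higher in sEV (1.15 ± 0.34, adjusted p = 0.0485) and RPS23, a decoding-centre protein, and RPS29 were lower (-1.39 ± 0.33, adjusted p = 0.0210, and -1.38 ± 0.41, adjusted p = 0.0494). DESeq2 called RPS23 lower. Of 7682 features the blocked fit called 630 higher and 477 lower, and DESeq2 442 and 329. In HL60, 0 of 25 passed, with 6 at unadjusted p under 0.05, against 5.45% higher and 1.75% lower, and DESeq2 called 5 lower (RPS12, RPS15, RPS19, RPS21 and RPS25). By edgeR 3 passed without HL60 sEV library 3. Over all features DESeq2 called 615 of 5813 higher and 343 lower, and that edgeR fit called 1587 of 7977. Most members were negative, 23 of 25 in HL60 and 22 of 25 in KG1a, with medians of -0.90 and -0.75. Without scaling these medians were 0.18 and 0.10, beside medians of all features of 1.04 and 0.99. The sign of the members' difference thus depended on the scaling. Their place under the median of all features could hardly change, because scaling moves all features by nearly the same amount.

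Between the lines, most calls in cell total RNA were higher in HL60. By edgeR 12 of 25 members were higher in HL60 than in KG1a cells and 1 was lower, against 18.4% and 21.5% of features, with a median log2 fold change of 0.62 beside -0.01. RPS14 differed most, with 3.14, 3.63 and 3.29 CPM in HL60 cells and 0.290, 0.329, 0.471 and 0.336 CPM in KG1a cells. The 2 sets of libraries were far apart (log2 fold change 3.32 ± 0.36, adjusted p = 6.33e-07, kept in all 12 alternative fits). RPS3A, the eS1 protein of the platform, followed with 3.07, 2.28 and 2.03 CPM against 0.797, 0.575, 0.565 and 0.504 CPM (log2 fold change 2.07 ± 0.36), and RPS21 and RPS18 with 1.83 and 1.78. RPS20 was lower, with 12.3, 9.74 and 11.1 CPM in HL60 cells against 22.1, 19.0, 22.2 and 18.5 CPM in KG1a cells (-0.80 ± 0.30, adjusted p = 0.0368, 0.116, 0.107 and 0.134 without HL60 cell library 1, 2 or 3). The count was 8 without KG1a cell library 3 or HL60 cell library 1 or 2.

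In lEV 3 of 25 members were higher in HL60 than in KG1a (RPS14, RPS25 and RPS3A, of which RPS25 overlapped between the lines) and 0 lower, against 7.04% and 9.1% of features. Without scaling 0 were higher and 2 lower. RPS14 had 7.55, 5.49 and 7.03 CPM in HL60 lEV and 2.45, 3.34 and 1.53 CPM in KG1a lEV (log2 fold change 2.47 ± 0.51, edgeR adjusted p = 0.00617). RPS3A had 2.10, 1.54 and 2.07 CPM against 1.5, 1.02 and 1.12 CPM, with a log2 fold change of 1.65 ± 0.45 (adjusted p = 0.0257, lost without KG1a lEV library 2 or 3 or HL60 lEV library 1, at 0.117, 0.106 and 0.0645). The count was 1 without KG1a lEV library 2 or 3. In sEV 0 of 24 passed by edgeR and 0 by DESeq2, with 2 at unadjusted p under 0.05, against 0.606% and 0.769% of features.

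Of the 28 members, 7 host snoRNA genes on their own strand, 14 in all, among them SNORA6 and SNORA62 in RPSA, SNORA10 and SNORA64 in RPS2, SNORD15A in RPS3, SNORD73A and SNORD73B in RPS3A, SNORD100, SNORD101 and SNORA33 in RPS12, SNORD14A and SNORD14B in RPS13, and SNORD54 in RPS20. Each lies in an intron of every annotated host transcript that spans it. RPS19 also holds the miRNA gene MIR6797, at 1 count in all, and RPS29 a small RNA gene of the miscellaneous class at 38 counts. Of the 14 snoRNA entries, 7 were at 0 in all 38 libraries. The table also holds RNAcentral snoRNA entries without a gene name, so a named entry may hold only a part of its snoRNA.

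SNORD14A and SNORD15A are shown because they hold the most counts, and SNORD14B as the other copy in RPS13. Capitals mark the C box (TGATGA) and D box (CTGA), the protein-binding boxes of C/D snoRNAs, in GRCh38 coordinates of GENCODE 29.
SNORD14A in RPS13, chr11:17074654-17074744, minus strand: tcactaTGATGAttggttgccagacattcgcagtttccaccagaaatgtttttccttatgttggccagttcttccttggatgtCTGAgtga
SNORD14B in RPS13, chr11:17075779-17075868, minus strand: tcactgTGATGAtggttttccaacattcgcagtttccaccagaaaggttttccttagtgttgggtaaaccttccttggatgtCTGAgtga
SNORD15A in RPS3, chr11:75400391-75400538, plus strand: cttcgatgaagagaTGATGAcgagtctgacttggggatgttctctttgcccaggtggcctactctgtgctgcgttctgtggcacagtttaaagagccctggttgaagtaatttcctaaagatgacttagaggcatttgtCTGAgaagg
SNORD14A and SNORD14B were identical at 79 of 92 aligned positions (85.9%). A C box followed by a D box, searched on the transcript's own strand with the boxes not overlapping, was found in 212 of 278 SNORD transcripts (76.3%), in 298 of 943 snoRNA transcripts of all kinds (31.6%) and in 140 of 35116 promoter windows of SNORD14A's length (0.399%).

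SNORD14A held 7985 counts and its host RPS13 7401, and the other copy, SNORD14B, held 0. The level of SNORD14A followed RPS13 from library to library, with r = 0.87 on log2 counts over 38 libraries, which share depth and source. In HL60 cells SNORD14A had 0.675, 3.21 and 3.77 CPM in rPAL against 28, 23.3 and 32.2 CPM in total RNA, next to the 1.86, 2.59 and 4.09 against 21.1, 18.9 and 29.8 CPM of RPS13. In KG1a sEV total RNA it had 33.5, 61.1 and 153 CPM beside 31.6, 54.7 and 150.4 CPM of RPS13. The match did not hold in every rPAL library. HL60 sEV rPAL library 1 had 68 counts of SNORD14A and 0 of RPS13, and KG1a sEV rPAL library 2 had 5 counts of SNORD14A and 155 of RPS13. Among features of at least 500 counts, those closest to RPS13 were an ncRNA entry (r = 0.947) and pre-miRNA entries (r of 0.946 and 0.937). Whether SNORD14A reads were also counted for RPS13 was not tested. SNORD14A was not annotated inside an exon of RPS13, and how reads with several features were handled is not given in the sources used here.

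**Figure D5:**
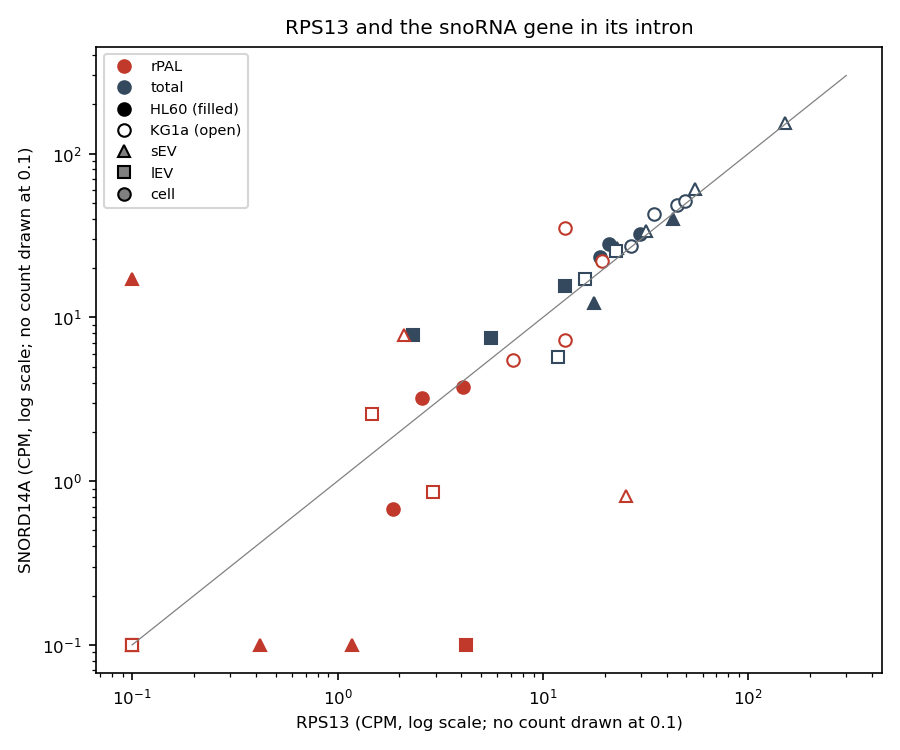
CPM of RPS13 and of SNORD14A, the snoRNA in its intron, in each library on log axes, by RNA kind and source. The points lie near the diagonal in total RNA, for example at 150.4 CPM of RPS13 and 153 CPM of SNORD14A in KG1a sEV total library 3, and most rPAL points lie lower and scatter more; a library with no count is drawn at the low edge of that axis.

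For RPS3 and RPS12 the host and the snoRNA named here were less alike across libraries. SNORD15A held 3098 counts beside 4724 for RPS3 (r = 0.23). SNORD15A averaged 29.2 ± 3.41 CPM in HL60 cell total RNA (n = 3) and 2.69 ± 0.566 CPM in KG1a cell total RNA (SD, n = 4), while RPS3 averaged 6.11 ± 0.0865 and 2.71 ± 0.802 CPM. In KG1a lEV, where RPS3 averaged 26.0 ± 4.57 CPM, SNORD15A averaged 3.81 ± 1.96 CPM. SNORA33 held 224 counts beside 3234 for RPS12 (r = -0.26).

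Hosts were also set beside the 21 members without snoRNAs. In KG1a lEV over cells, 4 of 7 tested hosts rose and 1 fell, with a median log2 fold change of 1.79, beside 14 of 18 and 1 of 18 and a median of 1.73 for the others. In HL60 lEV over cells 2 of 7 hosts rose, with a median of 0.57, beside 9 of 18 higher, 1 lower and a median of 1.22. In HL60 over KG1a cells 4 of 7 hosts were higher and 1 lower (median 1.29), beside 8 of 18 higher (median 0.61). Of all features 23.8% were higher and 28.5% lower in KG1a lEV over cells (median -0.01). The shares were 12.1% and 15.2% in HL60 lEV over cells (median 0.16) and 18.4% and 21.5% in HL60 over KG1a cells (median -0.01). After rPAL 1 of 7 hosts rose and 1 fell in HL60 cells, beside 20.6% and 18.0% of all features, and 2 of 6 rose and 1 fell in KG1a cells, beside 8.89% and 9.86%. Among single hosts, RPSA was called higher in KG1a lEV over cells, in KG1a sEV over cells and in HL60 over KG1a cells. Its log2 fold changes in the alternative fits were 1.95 to 2.52, 1.33 to 2.85 and 1.055 to 1.77 in that order. These calls were kept in 12, 11 and 9 of 12 alternative fits. RPS20 was called in 0 of 6 rPAL comparisons. No difference between hosts and the others was tested.

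The rest of the protein synthesis genes gave a frame for the vesicle result. In KG1a lEV over cells, 29 of 44 tested large-subunit ribosomal protein mRNAs rose and 5 fell (median log2 fold change 1.28), beside 23.8% and 28.5% of all features. Of 20 tested translation factor and other TOP mRNAs 12 rose and 2 fell (median 1.27), with EEF2, the elongation factor that moves the ribosome along mRNA, at 3.13 ± 0.37 and RACK1, a scaffold on the small subunit, at 2.85 ± 0.34. The mRNAs of the helicases EIF4A2 and EIF4A1 fell, at -2.45 ± 0.36 and -1.53 ± 0.38 (edgeR adjusted p = 6.42e-05 and 0.00337). Of 8 tested factors that assemble the small subunit 3 rose and 1 fell. Pseudogenes of the 28 members, which can share reads with them, rose in 29 of 38 tested cases and fell in 1 (median 2.93).

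In HL60 lEV over cells 17 of 46 large-subunit mRNAs rose and 3 fell (median 0.94), beside 12.1% and 15.2% of all features, with 2 of 19 translation mRNAs up and 1 down, 1 of 11 assembly factors up and 0 down, and 20 of 27 pseudogenes up and 0 down. In KG1a sEV over cells the corresponding counts were 10 up and 2 down of 44, 3 and 1 of 20, 6 and 1 of 13, and 12 and 2 of 24, beside 23.0% and 22.1% of all features. In HL60 over KG1a cells 25 of 47 large-subunit mRNAs were higher and 1 lower (median 0.79), beside 18.4% and 21.5% of all features. There 11 of 18 translation mRNAs were higher and 0 lower, among them RACK1 at 2.39 ± 0.29 and NACA, of the nascent polypeptide complex, at 2.28 ± 0.32, and 5 of 11 assembly factors were higher and 1 lower.

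After rPAL the large-subunit list had 6 higher and 1 lower of 44 in KG1a cells (median 0.80), 7 higher and 6 lower of 46 in HL60 cells (median -0.24), and 2 higher and 11 lower of 45 in HL60 lEV (median -1.85). Over all features the shares higher and lower were 8.89% and 9.86%, 20.6% and 18.0%, and 12.3% and 18.9% in the same order. Translation mRNAs had 3 higher and 3 lower of 18 in HL60 cells and 2 higher and 0 lower of 18 in KG1a cells. The 40S assembly factors had 4 higher and 1 lower of 15 in HL60 cells and 1 higher and 1 lower of 4 in KG1a cells.

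Over the 15 comparisons of 2 groups, RPS25 was called most often, higher in 8 and lower in 0, followed by RPS12 with 5 higher and 0 lower and RPS14 with 5 higher and 1 lower. RPS13 was lower in 3 and RPS29 higher in 2 and lower in 3. RPS9, RPS10, RPS26 and RPS27 were called in none, but RPS10 passed the filter on low counts in 0 and RPS9 and RPS26 in 3 of the 18 fits, interactions included, whereas RPS27 passed it in 15. Several of these comparisons share libraries, so the counts of one gene are not independent.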

How the data were processed

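The authors deposited raw counts per feature for 38 small RNA libraries. Per the submitters' processing notes, reads were aligned with Bowtie2 to GRCh38 (hg38). The version, counting program, strand, treatment of reads with several hits and annotation release are not given in the sources used here. All values were whole numbers. Symbols and coordinates came from GENCODE 29. Members and gene lists were chosen with earlier results of these data known.

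CPM is the count per 1000000 counts of the library. Fold changes came from edgeR 4.0.16 in R 4.3.3 (TMM scaling, filterByExpr, robust quasi-likelihood test), fitted on the whole table for the groups compared, with p-values adjusted by Benjamini-Hochberg over all features tested and calls at 0.05. Standard errors are the log2 fold change over the square root of F. A group with no count was set at 3 counts over the group for a bound. The script was tested on simulated data. Alternatives were DESeq2 1.42.0, its size factors in edgeR, no scaling, no filter, a replicate block and leaving out each library. Leaving out KG1a cell rPAL libraries 2 and 3 together was added after the data were seen. Members described singly were drawn mainly from snoRNA hosts, the 6 members of highest mean CPM, and per comparison at most 4 called members per direction whose groups do not overlap. The labels name no batch or date. One item is not reported here.

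The labels number the replicates in each group. Between KG1a sEV and lEV total RNA, deviations of same-numbered libraries from their group means correlated at 0.420, 0.136 and 0.286. Elsewhere not every number passed 0.1, though some correlations were of like size. Between HL60 and KG1a they were 0.083, 0.304 and 0.344 in sEV total RNA and 0.339 for library 1 of lEV total RNA. Between HL60 sEV and lEV total RNA they were 0.123, 0.0938 and 0.135. Whether same-numbered libraries were prepared together was not tested.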

Additional observations from a re-analysis of the deposited data

Results flagged for a closer look

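In groups of 4 libraries, the gap between the highest or lowest library and the next, set against the whole range, was checked for each member by Dixon's 95% critical value. Of 56 such groups 3 stood out, where chance gives about 1 in 20. RPS10 had 2.29 CPM in KG1a cell rPAL library 2 and no count in the other rPAL libraries of those cells. RPS10 had 0.377 CPM in KG1a cell total library 3 and no count in the others. RPS15, a protein of the decoding region, had 4.03 CPM in KG1a cell total library 2, above 2.69 to 2.83 CPM in the others. RPS10 was tested in no comparison, and RPS15 was not called between KG1a cell rPAL and total RNA.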

How the results depend on the processing

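Of 81 calls of single members, 34 were kept in every alternative fit, 47 were lost in at least 1, and 0 changed sign. Numbers below count members called. With no filter on low counts, which tests many more features, there were 1 in KG1a cell rPAL over total, 3 in HL60 cell rPAL, 1 in HL60 lEV rPAL, 0 in HL60 sEV rPAL, 7 in KG1a sEV over cells, 5 in HL60 lEV over cells and 8 in HL60 over KG1a cells. With the replicate block there were 2 in KG1a cell rPAL, 4 in HL60 cell rPAL, 2 in HL60 lEV rPAL, 0 in HL60 sEV rPAL, 7 in KG1a sEV over cells, 3 in KG1a sEV over lEV and 1 in the interaction in cells. The labels do not say whether same-numbered libraries share more than a number. DESeq2 called 2 in KG1a lEV rPAL, 1 in KG1a sEV rPAL, 7 in HL60 sEV rPAL, 1 in KG1a sEV over lEV, 3 in HL60 sEV over cells, 5 in HL60 sEV over lEV, 2 in the cell interaction and 1 in the lEV interaction. Without scaling there were 1 in KG1a lEV rPAL, 1 in KG1a sEV over lEV, 2 in HL60 lEV over cells and 1 in HL60 sEV over cells. Without KG1a cell rPAL libraries 2 and 3 together, chosen after seeing the data, there were 8 in KG1a cell rPAL and 1 in the cell interaction. Calls over all features also differed between fits. In HL60 sEV rPAL they were 681 of 3619 in the main fit and 226 of 46019 with no filter. With the block they were 322 of 3619, and by DESeq2 1175 of 3619. In HL60 lEV over cells they were 1779 of 6527 without scaling, beside 1785 in the main fit. Why the member counts moved was not tested.

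Leaving out each library in turn gave 2 to 7 calls in KG1a cell rPAL, 0 to 5 in KG1a lEV rPAL, 3 to 8 in HL60 cell rPAL, 0 to 10 in HL60 lEV rPAL, 0 to 0 in HL60 sEV rPAL, 7 to 15 in KG1a sEV over cells, 3 to 13 in HL60 lEV over cells, 0 to 3 in HL60 sEV over cells, 0 to 3 in HL60 sEV over lEV, 8 to 13 in HL60 over KG1a cells, 1 to 2 in lEV and 0 to 2 in the cell and lEV interactions. The mean summed level ran over 441 to 776 CPM in HL60 cell rPAL, 120.02 to 127 in HL60 cell total, 1722 to 3308 in HL60 lEV rPAL, 133 to 158 in HL60 lEV total, 228 to 524 in HL60 sEV rPAL, 126 to 175 in HL60 sEV total, 199 to 263 in KG1a cell rPAL, 115 to 125 in KG1a cell total, 209 to 455 in KG1a lEV rPAL, 254 to 259 in KG1a lEV total, 229 to 375 in KG1a sEV rPAL and 255 to 375 in KG1a sEV total.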
